A study of Mus musculus with 2 samples.

Results

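The Elavl and Celf genes encode 2 families of RNA-binding proteins, Elavl1 to Elavl4 and Celf1 to Celf6. All 10 genes, 4 Elavl and 6 Celf, were taken by symbol from the 43346 Ensembl genes of the deposited tables, and each was found. The choice was made with earlier results of these data known. The tissue was hindbrain of B6NCrl mouse embryos at 13.5 days, with males and females pooled, and the embryos are described as healthy. Total RNA of more than 200 nt, 10 ng per library, was sequenced in 2 libraries numbered as biological replicates 1 and 2. The libraries form 1 group with no treatment, genotype or time to contrast, they share a donor label, and they carry different biosample labels. Whether they stem from separate embryo pools is not stated, so part of their spread, and the p-values below, may be technical.

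Elavl proteins, also called Hu proteins, carry 3 RNA-recognition motifs, and bind U-rich and AU-rich stretches, chiefly in introns and 3' untranslated regions, where they act on splicing and tend to raise mRNA stability and translation. Elavl1 (HuR) is made in most cell types, while Elavl2 (HuB), Elavl3 (HuC) and Elavl4 (HuD) are made mainly in neurons and mark early neuronal differentiation. Celf proteins also carry 3 RNA-recognition motifs, bind GU-rich sequence, and act on alternative splicing, deadenylation and translation. Celf1 and Celf2 are broadly made, and Celf3, Celf4, Celf5 and Celf6 are found mainly in the nervous system.

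The sequences below show how alike the members are, which bears on whether reads can be assigned to a single gene. They were read from the GENCODE M21 transcript sequences (GRCm38, the build of the files) for the complete protein-coding transcript with the highest TPM of each gene except Celf4. The 4 Elavl genes share 3 coding exons of equal size, 104, 154 and 226 bases. The 104-base exon, which encodes part of the first RNA-recognition motif, lies at chr8:4304927-4305030 (minus strand) for Elavl1, chr4:91281214-91281317 (minus strand) for Elavl2, chr9:22036312-22036415 (minus strand) for Elavl3 and chr4:110226545-110226648 (minus strand) for Elavl4. Capitals mark the 66 of 104 positions that are identical in all 4 genes.
Elavl1: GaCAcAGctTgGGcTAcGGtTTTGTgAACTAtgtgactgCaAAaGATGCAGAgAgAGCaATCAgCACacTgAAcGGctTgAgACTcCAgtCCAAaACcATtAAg
Elavl2: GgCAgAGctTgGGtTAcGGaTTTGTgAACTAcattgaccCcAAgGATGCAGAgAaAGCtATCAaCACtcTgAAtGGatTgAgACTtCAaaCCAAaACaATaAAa
Elavl3: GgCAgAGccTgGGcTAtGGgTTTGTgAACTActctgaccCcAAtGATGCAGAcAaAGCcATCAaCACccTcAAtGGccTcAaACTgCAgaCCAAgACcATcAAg
Elavl4: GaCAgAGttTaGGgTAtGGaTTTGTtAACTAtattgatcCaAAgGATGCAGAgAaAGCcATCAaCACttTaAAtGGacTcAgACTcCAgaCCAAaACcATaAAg
Over the 484 bases of these 3 exons, Elavl1 was 69.8% to 72.1% identical to the other Elavl genes, and Elavl2, Elavl3 and Elavl4 were 74.6% to 79.96% identical to each other.

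Celf1, Celf2, Celf3, Celf5 and Celf6 share 2 coding exons of equal size, 80 and 83 bases. Celf4 was left out of the exon comparison, so whether it has these exons is not shown here. The 80-base exon, which encodes part of the second RNA-recognition motif, lies at chr2:91003811-91003890 (plus strand) for Celf1, chr2:6607882-6607961 (minus strand) for Celf2, chr3:94485497-94485576 (plus strand) for Celf3, chr10:81469444-81469523 (minus strand) for Celf5 and chr9:59602800-59602879 (plus strand) for Celf6. Capitals mark the 31 of 80 positions that are identical in these 5 genes.
Celf1: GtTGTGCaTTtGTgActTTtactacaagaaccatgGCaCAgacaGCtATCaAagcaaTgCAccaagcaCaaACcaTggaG
Celf2: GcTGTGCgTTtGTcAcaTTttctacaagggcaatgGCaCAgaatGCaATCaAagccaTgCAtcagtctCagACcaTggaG
Celf3: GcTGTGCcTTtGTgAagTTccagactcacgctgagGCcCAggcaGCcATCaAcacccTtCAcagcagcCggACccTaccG
Celf5: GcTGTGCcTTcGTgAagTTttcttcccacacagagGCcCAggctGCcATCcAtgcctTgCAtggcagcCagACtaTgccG
Celf6: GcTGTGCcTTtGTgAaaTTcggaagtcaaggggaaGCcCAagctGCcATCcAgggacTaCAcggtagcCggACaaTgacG
Over the 163 bases of the 2 exons, Celf1 and Celf2 were 75.5% identical, Celf3, Celf5 and Celf6 were 74.8% to 78.5% identical to each other, and genes of different subfamilies were 55.2% to 60.1% identical. In the count tables, 9 of the 10 genes had whole estimated counts in both libraries (within 0.005), so few reads were divided between a member and another gene. The exception was Celf5, with 4140.96 and 4473.73 counts. Gm16105, an antisense gene within Celf5, also had fractional counts, 9.04 and 17.27. The divided reads of Celf5 need not be shared with another Celf gene, and where they were shared was not tested.

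The libraries held 33080194 (replicate 1) and 38756411 (replicate 2) estimated counts, and 15342 genes had at least 1 TPM in both. TPM is a level per transcript length, scaled to the library. Of hindbrain markers (Hoxa2, Hoxb2, Hoxb4, Gbx2, Meis1) 5 of 5 reached 1 TPM in both libraries, as did 8 of 8 neuron and 7 of 7 neural progenitor markers, against 1 of 5 forebrain markers (Lhx2). The 5 choroid plexus markers were all higher in replicate 2, with a summed level of 615.92 against 1158.33 TPM, and the 5 mesenchyme markers summed to 741.47 and 574.39 TPM. No marker of either list was at 0.

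All 10 members were detected, at 1 TPM or more in both libraries, and each stood above the median of 16.1 TPM over detected genes. Of the neuronal Elavl genes, Elavl4 had 317.77 TPM in replicate 1 and 311.50 in replicate 2, Elavl2 had 129.78 and 124.83, and Elavl3 had 50.04 and 50.05. Elavl1 had 60.40 and 61.32 TPM. Elavl4 was thus the highest of the 10 genes and the 455th of all detected genes, and Elavl3 lay below Elavl1 in both libraries. Elavl1 and Elavl3 are tabulated with 1 transcript each, while Elavl2 has 16 and Elavl4 has 12.

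Summed, Elavl2, Elavl3 and Elavl4 had 497.59 and 486.38 TPM, 8.09 ± 0.217 fold the level of Elavl1 (SD, n = 2; log2 ratios of 3.04 and 2.99). Elavl1 made up 11.01% ± 0.263 of the family's TPM and Elavl4 56.9% ± 0.0529 (SD, n = 2). Counts scaled to library size alone (CPM), with no division by length, gave a smaller ratio of 3.42 ± 0.0357 fold, with Elavl1 at 22.6% ± 0.183 of the family (SD, n = 2). The log2 ratio over complete protein-coding transcripts alone was 2.07, against 3.02 over all transcripts. Elavl1 and Elavl3 have no other transcripts tabulated, so only the levels of Elavl2 and Elavl4 could fall on that scale. In bulk tissue, fewer cells of a type and less RNA per cell cannot be told apart.

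**Figure D1:**
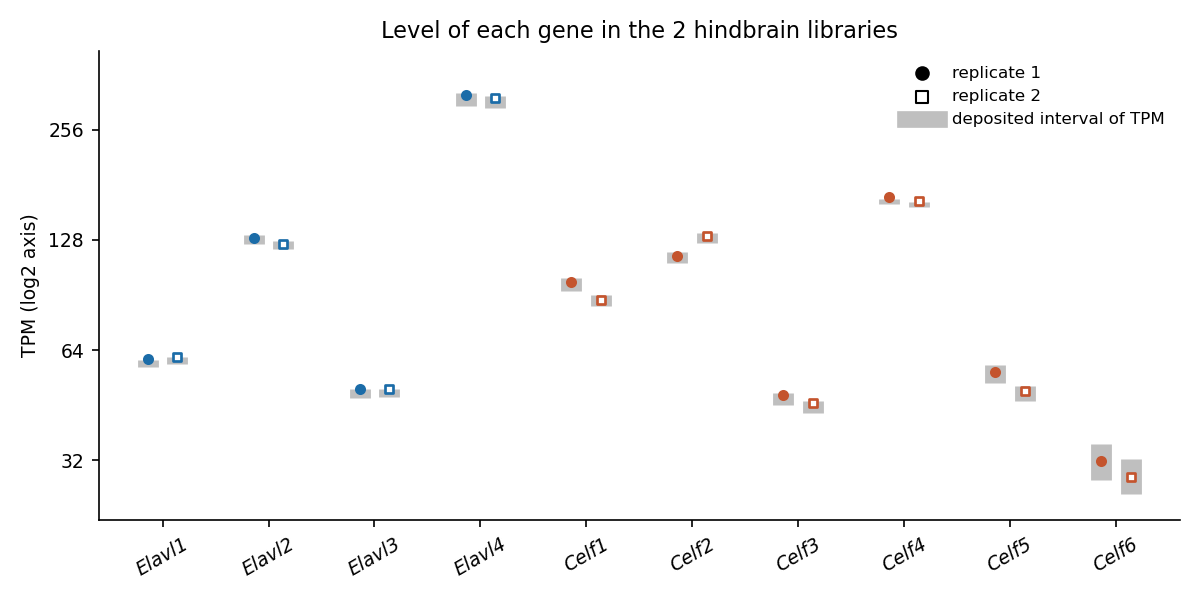
TPM (log2 axis) of the 10 genes in replicate 1 (filled circles) and replicate 2 (open squares), with the authors' deposited interval of TPM as a grey bar; Elavl genes are blue and Celf genes orange. Elavl4 is highest at 317.77 and 311.50 TPM, Celf6 lowest at 31.86 and 28.74, and 5 of the 20 values lie above their own interval.

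The order of the broadly made Celf genes depended on the scale. Celf1, which acts on splicing and promotes deadenylation and decay of GU-rich mRNAs, had 97.91 and 87.42 TPM. Celf2, its closest relative by the exons above among the genes compared, had 115.77 and 130.94 TPM. On TPM, Celf2 exceeded Celf1 in both libraries, but on CPM it was below Celf1 in replicate 1 (281 against 285) and above it in replicate 2 (312 against 270.4). Over complete protein-coding transcripts, Celf1 had 88.43 and 82.71 TPM and Celf2 88.74 and 95.13.

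Among the Celf genes linked to the nervous system the levels spread more widely than between Celf1 and Celf2. Celf4, a regulator of neuronal mRNAs whose loss causes seizures in mice, had 167.64 and 163.76 TPM, Celf5 had 55.63 and 49.34, Celf3 had 48.36 and 45.92, and Celf6 had 31.86 and 28.74. Celf4 was the highest Celf gene in both libraries, at 32.4% ± 0.0417 of the family's TPM (SD, n = 2), and Celf6 the lowest. Celf1 and Celf2 together had 213.68 and 218.36 TPM against 303.49 and 287.76 for Celf3 to Celf6, a ratio of 0.731 ± 0.0387 (SD, n = 2). The log2 ratio was -0.45 on TPM, -0.18 on CPM and -0.67 over complete protein-coding transcripts, below 0 on each scale. Celf3 and Celf4 have only complete coding transcripts tabulated, so on the last scale they could lose no TPM.

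By mean TPM the order was Elavl4 (315), Celf4 (166), Elavl2 (127), Celf2 (123), Celf1 (92.7), Elavl1 (60.9), Celf5 (52.5), Elavl3 (50.05), Celf3 (47.1) and Celf6 (30.3). The ranges of the 2 libraries overlapped between the neighbours Elavl2 and Celf2 and between Celf5 and Elavl3, so these pairs did not differ beyond their spread. Between Elavl1 and Celf5, and between Elavl3 and Celf3, the ranges were apart but the deposited intervals overlapped in at least 1 library. The other 5 neighbouring pairs had ranges and intervals apart. On CPM, where longer transcripts collect more reads, Celf4 (410 ± 3.83) stood above Elavl4 (338 ± 7.30; SD, n = 2).

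The high TPM of Elavl4 rested on 2 short transcripts that are annotated as processed transcripts without a coding sequence. Elavl4-211, of 869 nt, had 113.72 and 115.32 TPM, 36.4% ± 0.870 of the gene, and Elavl4-210, of 464 nt, had 62.06 and 63.80 TPM, 20.0% ± 0.672 (SD, n = 2). The main coding transcript Elavl4-202, of 4024 nt, had 64.40 and 75.70 TPM, 22.3% ± 2.85 of the gene's TPM but 52.3% of its counts. The complete protein-coding transcripts of Elavl4 carried 32.1% ± 1.35 of its TPM and 75.4% ± 1.10 of its counts (SD, n = 2). Counted over these transcripts alone, Elavl4 had 98.92 and 102.90 TPM and ranked 3rd in both libraries, after Celf4 (167.64 and 163.76) and Elavl2 (106.18 and 104.07). Celf4 is tabulated with complete coding transcripts only and so could lose no TPM in this ranking. Transcript levels are estimates from short reads, and how the reads divided between the overlapping transcripts of Elavl4 was not tested.

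**Figure D2:**
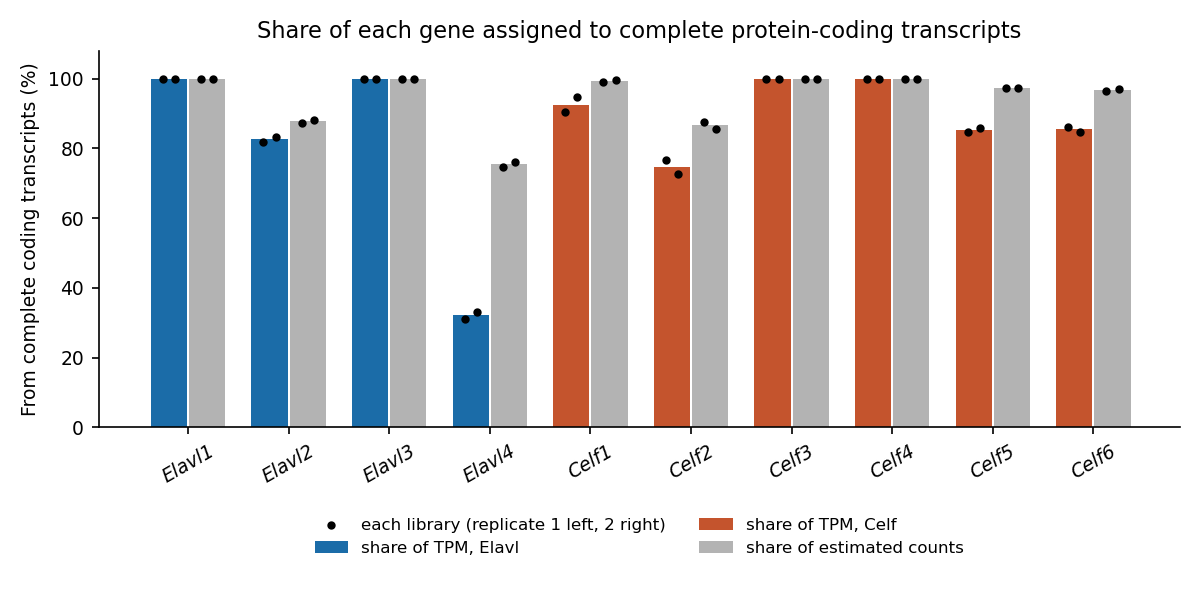
Percent of each gene's TPM (coloured bars, Elavl blue and Celf orange) and of its estimated counts (grey bars) assigned to complete protein-coding transcripts; bars are means of the 2 libraries and dots the single libraries. Elavl4 stands at 32.1% of TPM against 75.4% of counts, and the other genes lie between 74.7% and 100% of TPM.

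No other member departed as far. Elavl1, Elavl3, Celf3 and Celf4 are tabulated with complete coding transcripts only, so their share of 100% was fixed by the annotation. Complete coding transcripts carried 92.5% ± 3.05 of the TPM of Celf1, 85.4% ± 0.919 of Celf6, 85.2% ± 0.944 of Celf5, 82.6% ± 1.10 of Elavl2 and 74.7% ± 2.82 of Celf2 (SD, n = 2). In Elavl2 the rest was mainly Elavl2-215, a transcript with a retained intron, at 18.27 and 16.64 TPM. In Celf2 it included Celf2-210, a processed transcript of 923 nt, at 11.39 and 13.63 TPM. In Celf6 the short retained-intron transcript Celf6-208 had 3.68 and 2.99 TPM, with an interval in replicate 1 from 0.5002 to 7.61.

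The tables hold 91 transcripts of the members, 30 of Elavl and 61 of Celf genes, of which 14 were listed at 0 in both libraries and 55 had a mean of 1 TPM or more. Elavl1, Elavl3 and Celf3 have a single transcript. Of the 7 other genes, 6 had a leading transcript whose interval lay apart from that of the next in both libraries, with Celf1 as the exception. Celf5-201 carried 80.9% ± 2.74 of Celf5, Celf4-201 76.8% ± 1.202 of Celf4, Celf6-201 48.8% ± 3.53 of Celf6 and Celf2-206 43.1% ± 1.55 of Celf2 (SD, n = 2). The second transcripts of Celf4 and Celf6, Celf4-202 and Celf6-202, had 23.2% ± 1.202 and 30.5% ± 2.26, and Celf2-224 had 15.4% ± 0.170 (SD, n = 2). Celf1 was divided among 10 transcripts with a TPM above 0, of which 3 reached 10% of the gene, Celf1-204 at 28.5% ± 1.12, Celf1-205 at 20.2% ± 1.66 and Celf1-206 at 19.1% ± 1.53 (SD, n = 2).

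Elavl2 was led by Elavl2-209, whose share was 27.70% in replicate 1 and 36.38% in replicate 2 (35.95 and 45.42 TPM), followed by Elavl2-201 at 20.50% and 22.09% and Elavl2-208 at 21.53% and 17.41%. Elavl2-209 and Elavl2-208 belong to the same first exon, and Elavl2-208 also holds a partly coding 91-base exon that Elavl2-209 skips. The sum over the 5 transcripts that use this first exon moved much less, with 85.24 and 85.69 TPM, than its single transcripts did. This first exon, at chr4:91375936-91376496, carried 67.2% ± 2.10 of Elavl2, the one at chr4:91371530-91372069 carried 23.1% ± 0.615, and the one at chr4:91399816-91399984 had 11.08 and 6.88 TPM, 7.03% ± 2.14 of the gene (SD, n = 2).

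The Celf genes with several first exons also favoured 1 of them. In Celf1 the first exon at chr2:90998579-90998767 carried 48.7% ± 0.537 of TPM and the one at chr2:90940382-90940641 carried 37.7% ± 0.325. In Celf2, a gene of 970 kb, the first exon at chr2:6884852-6884996 carried 53.6% ± 1.45 and the one at chr2:6721417-6722216 carried 25.6% ± 1.21. In Celf6 the leading first exon, at chr9:59577917-59578639, carried 55.5% ± 3.89 (SD, n = 2 throughout). Transcripts whose annotation is incomplete at the start are included, so an exon listed first need not be a start of transcription.

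A coding exon of 39 bases, present in Elavl2, Elavl3 and Elavl4 and not in the Elavl1 transcript, encodes part of the linker between the second and the third RNA-recognition motifs and is known to be alternatively spliced. Its sequences, at chr4:91254141-91254179 (minus strand) for Elavl2, chr9:22024674-22024712 (minus strand) for Elavl3 and chr4:110209740-110209778 (minus strand) for Elavl4, are shown because, among the Elavl2 and Elavl4 transcripts that span its place, those that hold it took nearly all of the TPM. Capitals mark the 32 of 39 positions that are identical in the 3 genes.
Elavl2: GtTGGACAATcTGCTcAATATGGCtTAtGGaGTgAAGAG
Elavl3: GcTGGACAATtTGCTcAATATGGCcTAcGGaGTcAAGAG
Elavl4: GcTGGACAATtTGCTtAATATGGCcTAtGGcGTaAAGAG
In Elavl2, transcripts with the exon had 101.69 and 101.68 TPM and those that skip it 4.49 and 2.39, so that 96.7% ± 1.37 of the spanning TPM held it (SD, n = 2). In Elavl4, transcripts with it had 207.50 and 214.19 TPM, Elavl4-211 among them, against 5.14 and 4.03 without, which gave 97.9% ± 0.403 of the spanning TPM with it (SD, n = 2). Elavl4-210 and 3 transcripts with an incomplete coding sequence (Elavl4-208, Elavl4-209 and Elavl4-212) do not span the place and are in neither sum. The only tabulated transcript of Elavl3 holds it. The Elavl2 exon of 91 bases was held by 24.5% and 19.3% of the TPM spanning it, and an Elavl4 exon of 87 bases by 14.9% and 8.70%.

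Celf1 has an exon in the linker before the third RNA-recognition motif that begins at either of 2 places 12 bases apart. The longer form, at chr2:91006620-91006695 (plus strand), is printed with the 12 extra bases in capitals.
Celf1: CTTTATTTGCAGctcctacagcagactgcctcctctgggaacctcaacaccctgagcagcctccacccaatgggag
The longer form was held by 67.5% of the TPM spanning it in replicate 1 and 70.7% in replicate 2, with Celf1-204 as the only transcript of the shorter form. A further exon of Celf1 had 3 extra bases in 33.5% and 29.7% of TPM.

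In Celf2 a coding exon of 144 bases, which encodes the start of the third RNA-recognition motif, was held by 77.8% of the spanning TPM in both libraries, 71.24 and 78.16 TPM with it and 20.27 and 22.35 without. Most of the TPM without it was that of Celf2-224, with 17.70 and 20.33 TPM. The exon, at chr2:6549832-6549975 (minus strand), and its Celf1 counterpart, at chr2:91012699-91012842 (plus strand), are shown with the 120 of 144 identical positions in capitals, a closer match than over the 163 bases above.
Celf1: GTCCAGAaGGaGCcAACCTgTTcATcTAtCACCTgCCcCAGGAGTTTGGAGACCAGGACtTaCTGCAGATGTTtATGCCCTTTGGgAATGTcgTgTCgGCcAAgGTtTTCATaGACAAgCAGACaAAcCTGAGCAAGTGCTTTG
Celf2: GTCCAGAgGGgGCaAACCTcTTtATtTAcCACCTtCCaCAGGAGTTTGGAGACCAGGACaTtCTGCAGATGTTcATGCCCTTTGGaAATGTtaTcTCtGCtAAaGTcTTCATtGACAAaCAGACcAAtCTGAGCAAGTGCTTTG
A Celf2 exon with 12 extra bases made up 23.3% and 26.2% of its TPM. Of the TPM of Celf4, 24.1% and 22.4%, the share of Celf4-202, had a form of an exon with 30 extra bases. Celf4-201, the only transcript without them, was 3935 nt as deposited and 2899 nt in GENCODE M21, so its structure may differ. All exon percentages here are sums of estimated transcript TPM, and reads across exon junctions were not counted. In Celf6 an exon of 63 bases was held by 7.997% and 7.59% of TPM, and 3 extra bases of another exon by 66.9% and 62.2%, while in Celf5 3 extra bases of an exon were held by 94.0% and 96.7%.

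**Figure D3:**
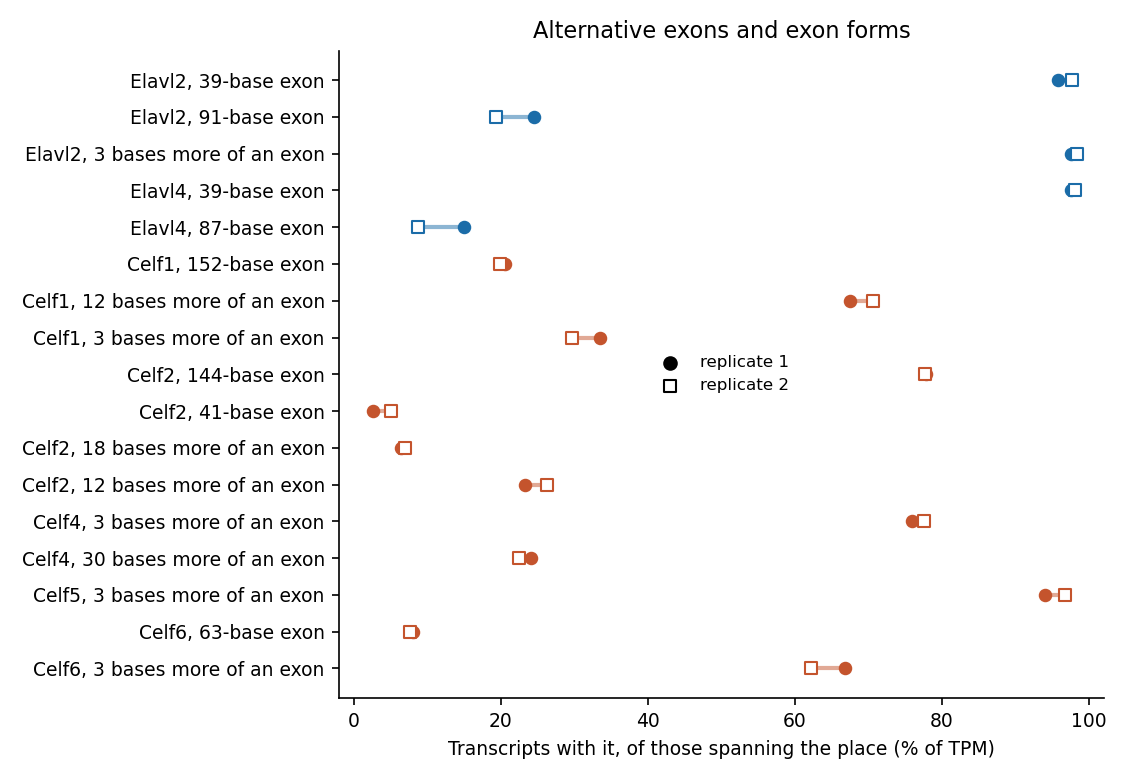
Percent of TPM of the transcripts that hold an alternative coding or partly coding exon, or the longer form of an exon, among those spanning it, in replicate 1 (filled circles) and replicate 2 (open squares), for 17 exons or forms with a mean share between 1% and 99% and at least 5 TPM spanning them in each library. The 39-base exons of Elavl2 and Elavl4 lie above 95% in both libraries, and the 144-base exon of Celf2 is at 77.8% in both.

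The counts of replicate 2 were set against those of replicate 1, gene by gene, with an exact binomial test (two-sided), adjusted by the Benjamini-Hochberg method over 19687 genes. Only counting error enters the test, and at the adjusted threshold of 0.05 it called 12.6% of the genes, 7.07% as higher in replicate 2 and 5.49% as lower. Of the 10 members, 4 were called, against 17.1% of the genes within the members' range of mean TPM (30.3 to 315). The deposited intervals were disjoint between libraries for 3 members, against 9.27% of genes with a mean of 1 TPM or more. The latter genes were not limited to the members' TPM range. The median absolute log2 ratio was 0.05 both for the members and for genes of their TPM range, so the size of the members' differences was near that of other genes.

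The 4 genes called were all Celf genes. Celf2 had 9094 and 11778 counts (281 and 312 CPM) and was 1.11-fold higher in replicate 2, with an adjusted p of 2.34e-12 by the exact binomial test and disjoint intervals. Celf1 (9215 and 10214 counts) was at 0.952 of its replicate 1 level, with an adjusted p of 0.00817 by the exact binomial test. Celf5 (4140.96 and 4473.73 counts) was at 0.928, with an adjusted p of 0.00729, and Celf6 (1344 and 1371 counts) was at 0.876, with an adjusted p of 0.00782, by the same exact binomial test. Celf1 and Celf5 also had disjoint intervals, and Celf6 did not. Celf1 and Celf2 thus moved in opposite directions. Of the genes of the members' TPM range, 4.88% had a larger absolute log2 ratio than Celf6, 8.21% than Celf2, 17.3% than Celf5 and 33.7% than Celf1.

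The 4 Elavl genes, Celf3 and Celf4 did not pass the exact binomial test, with adjusted p from 0.0632 (Elavl4) to 0.795 (Elavl2). Their ratios lay between 0.963 (Celf3) and 1.03 (Elavl4). The ERCC spike-ins, synthetic RNAs added to the samples, took 5.50% and 5.99% of TPM. With counts scaled to them in place of the library-size factors, 9 members were called lower in replicate 2 and Celf2 was not called, on a scale where the median gene of 1 TPM or more fell by 0.14 on the log2 scale and 40.4% of all genes were called. The marker calls that follow used the library-size factors, not the spike-ins, and 12.6% of all genes tested were called on that scale. Of the markers, 5 of 5 for choroid plexus were called higher in replicate 2 and 4 of 5 for mesenchyme lower. The 7 neural progenitor markers went both ways, with 5 called higher and 2 lower (Nes and Hes5), and summed to 2627.03 and 2885.21 TPM. The 8 neuron markers summed to 4021.74 and 3900.63 TPM, with 1 called higher and 3 lower. Of 5 erythroid markers 4 were called higher and 1 lower (sums of 10293 and 10992 TPM), and 3 of 5 for microglia (91.32 and 109.73), 2 of 5 for sensory ganglion (183.99 and 196.80), 2 of 4 for skeletal muscle (46.22 and 53.81), 2 of 5 for hindbrain and 1 of 5 for endothelium were called higher. No marker of these lists was at 0, and the part of these cell types in the differences was not tested.

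**Figure D4:**
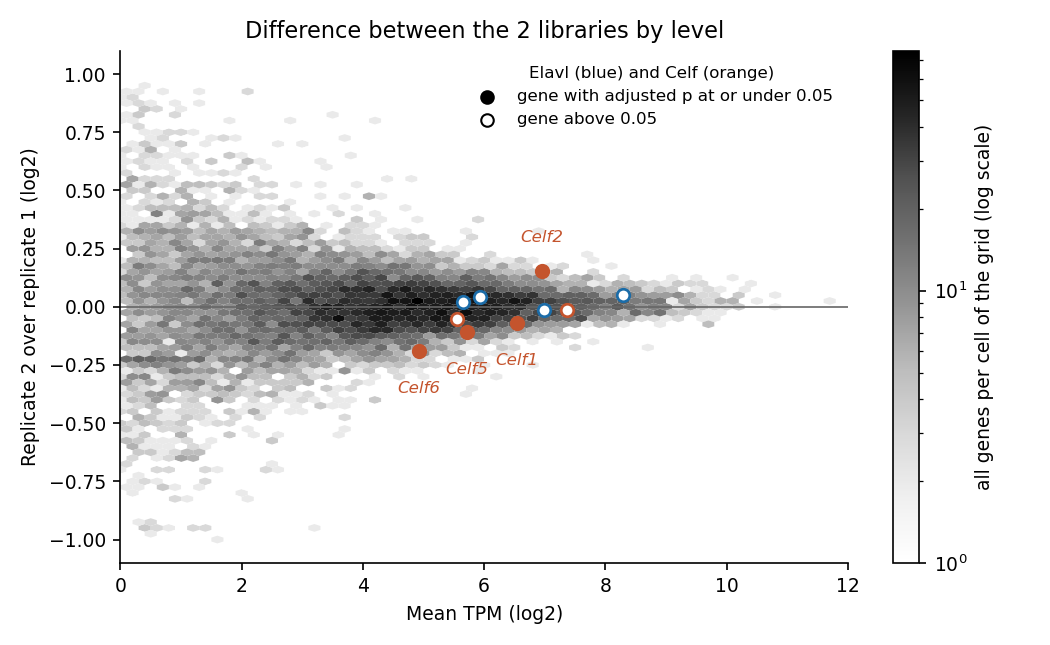
Log2 ratio of replicate 2 over replicate 1 against mean TPM (log2) for genes with a mean of 1 TPM or more (grey, darker where more genes fall; 400 genes outside the axes are not drawn), with the 4 Elavl (blue) and 6 Celf (orange) genes. Filled points are the 4 members called by the exact binomial test, of which Celf2 lies above 0 and Celf1, Celf5 and Celf6 below.

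The share of member transcripts with intervals apart between the 2 libraries was near that of all transcripts. Of the 55 member transcripts with a mean of 1 TPM or more, 3 had disjoint intervals, against 4.96% of all transcripts of that level. These were Celf2-206 (51.15 and 54.98 TPM), Celf2-228, which is annotated as a target of nonsense-mediated decay (2.32 and 5.12), and Elavl4-202 (64.40 and 75.70). All were higher in replicate 2. The intervals of Elavl2-209 overlapped, from 30.5 to 40.1 and from 39.3 to 48.8. So did those of Elavl4-208, at 26.40 and 15.00 TPM, and overlapping intervals therefore do not show equal levels.

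Other factors that bind the same kinds of RNA were measured alongside. All 7 factors of AU-rich elements were detected, led by Tia1 (278.43 and 266.48 TPM), a translational repressor, Hnrnpd (118.49 and 150.18), which encodes AUF1, and Zfp36l1 (36.03 and 42.83), which promotes mRNA decay, while Zfp36l2 was lowest (4.22 and 4.15). Hnrnpd and Zfp36l1 were called higher in replicate 2, and none lower. Over all genes tested, 12.6% were called in either direction, which is the share to set beside this and the following lists. It is not matched to their counts, and the test calls smaller differences at higher counts. Among genes within the members' TPM range the share was 17.1%. Elavl1 was thus above Zfp36l1 and below Hnrnpd and Tia1 in both libraries.

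The 8 genes of poly(A) tail removal, a process that Celf1 promotes, were all detected. Cnot7 (141.90 and 138.13 TPM) and Cnot8 (95.51 and 92.52), catalytic subunits of the CCR4-NOT complex, were highest. Pan3 (46.98 and 45.51), a subunit of the PAN2-PAN3 deadenylase, came next with Cnot6 (46.20 and 45.85), another catalytic subunit of CCR4-NOT, and the order of these 2 turned between the libraries. Cnot6l (10.64 and 11.74) was lowest and was the only one called, higher in replicate 2. Of the muscleblind genes, splicing factors that often oppose Celf1, Mbnl1 had 38.07 and 40.23 TPM and was called higher, Mbnl2 had 11.39 and 11.75, and Mbnl3 had 1.41 and 1.15. Celf1 and Celf2 were each more than 2-fold above Mbnl1 in both libraries.

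The 10 transcripts listed as known Elavl targets were all detected, with Gap43 (853.41 and 807.19 TPM), a growth cone protein, Mapt (590.60 and 567.37), the microtubule protein tau, and Serpini1 (102.92 and 102.45), the protease inhibitor neuroserpin, highest and Fos (1.5 and 2.01) lowest. Of those reported here, Mycn and Msi1 were called higher in replicate 2, with log2 ratios of 0.152 and 0.107. Gap43, Mapt and Nova1 were called lower, with log2 ratios of -0.059, -0.056 and -0.162. The share called over all genes tested was 12.6%, which is not matched to counts as high as those of Gap43 (23237 and 25968) and Mapt (30261 and 33908). Of 7 listed Celf targets, Mapt, Insr (42.46 and 43.48 TPM), the insulin receptor, and Grin1 (20.27 and 18.21), an NMDA receptor subunit, were highest and Clcn1 (1.31 and 1.19) lowest, and 2 were called, Mapt and Tnnt2 (13.15 and 9.83), both lower. The lists' median log2 ratios were -0.0025 and -0.0673, beside 0.0043 over all genes tested.

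Several members overlap another gene, and the strand setting of the counting is not given in the sources used here, so their reads may not be fully separate. Ccl25 overlaps Elavl1 on the opposite strand with 223 and 249 counts, Riiad1 overlaps Celf3 with 208 and 285, and Gm16105 lies within Celf5 with 9.04 and 17.27. Elavl1 had 7399 and 8872 counts and Celf3 2642 and 2963. Counts given to an overlapping gene do not show how many of its reads were counted for a member, which was not tested.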

How the data were processed

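Gene and transcript tables of 2 total RNA-seq libraries were used as deposited; the labels cite Ambion mirVana extraction and a SMARTer Ultra Low kit manual. The authors assigned reads to transcripts of GENCODE M4 on mm10, according to notes deposited beside the tables. Which program and strand setting they used is not given in the sources used here. Estimated counts, TPM, FPKM and the percent of a gene's TPM per transcript are as deposited by the authors. The interval bounds of TPM, a signal per gene or transcript, were also deposited by the authors; their level is not stated and they surround a posterior mean. Names, exons and sequences come from GENCODE M21; 88 of the 91 member transcripts have the same length there.

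The members and gene lists were chosen with earlier results of these data known. All 10 members are described, with transcripts of at least 10% of a gene, and of each gene list the 3 highest, the lowest detected and any not detected; other transcripts, exons and genes were chosen after their values were seen, and 1 gene of these lists is not reported here. A gene was detected at 1 TPM in both libraries. Complete protein-coding transcripts have an annotated start and end of the coding sequence. Estimated counts were rounded, scaled with TMM (edgeR 4.0.16, R 4.3.3) and tested with a two-sided exact binomial test (SciPy 1.17.1) over genes whose counts in both libraries summed to 10 or more, with a pseudocount of 0.5 for ratios; the design has 1 group, so no quasi-likelihood test was possible. The test covers counting error only; without molecular identifiers, PCR copies of a molecule count as separate reads. DESeq2 1.42.0 size factors were an alternative. The test was run on simulated Poisson counts (19385 genes), which hold counting error alone, as the test assumes. It called 73% of 100 genes raised 2-fold, 29% of 100 raised 1.2-fold and 3 of 19185 unchanged genes. At 1000 or more counts these were 100%, 71.8% and 2 of 9638. These shares check the computation and do not give the rate of false calls between the real libraries.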

Additional observations from a re-analysis of the deposited data

How the results depend on the processing

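Of 54 recomputed values, 6 moved. Many of the 54 could not move, such as those from 1 library alone and the shares of genes with 1 transcript. The total is thus no measure of robustness. Ratios and shares were judged against the spread between the libraries, and counts of members against a fixed fold limit. Neither of the log2 ratios below changed sign, and direction was not judged for the other values. The log2 ratio of neuronal Elavl genes over Elavl1 was 3.02 on TPM, 1.77 on CPM and 2.07 over complete protein-coding transcripts, an alternative added after the data were seen. That of Celf1 and Celf2 over Celf3 to Celf6 was -0.45 on TPM, -0.18 on CPM and -0.67 over complete protein-coding transcripts. CPM is not divided by transcript length. Scaling to the spike-ins raised the members called from 4 to 9, of which 3 were shared. All 9 were lower in replicate 2, whereas library-size scaling had called 1 higher and 3 lower. The share of Celf5-201 was 80.9% from TPM and 77.3% from the posterior mean TPM. For the other results, the posterior mean TPM, FPKM, a pseudocount, other thresholds, DESeq2 size factors, total counts, no count filter, posterior mean counts and scaled intervals gave values within that spread or the same counts. With 2 libraries, each alone lies within 1 SD of the mean by construction, and the test and interval comparison need both. No paired analysis was possible because there is 1 group.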
